A study of Mus musculus with 19 samples.

Results

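The protein-coding genes of the respiratory chain were followed in mouse liver in which a transgene for the AP-1 dimer of c-Jun and Fra2 (genes Jun and Fosl2) had been switched on. The members were the 13 protein-coding genes whose symbols start with mt-, which lie on the mitochondrial genome, and 43 nuclear genes for subunits of complexes I to IV, 56 of the 55421 genes in the table. Of the nuclear members 24 belong to complex I, 4 to complex II, 6 to complex III and 9 to complex IV. Of the mitochondrial members 7 belong to complex I, 1 to complex III, 3 to complex IV, and mt-Atp6 and mt-Atp8 to the ATP synthase. All 56 symbols were found.

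RNA of 19 livers or liver tumours from adult male C57BL/6 mice was measured by sequencing of its poly(A) fraction. All mice, littermate controls included, were taken off doxycycline at weaning at 3 weeks of age, which starts the transgene in mutants, and were killed 2 or 9 months later. At 2 months 3 mutants were set against 6 controls. At 9 months the mutants, 3 in number, gave 4 tumours and 3 samples of liver without a visible tumour, set against 3 controls. Tumours a and b came from mutant 1 and were summed for every test, so that n is 3 animals. The promoter that drives the transgene is not given in the sources used here, and the labels describe the cells as mostly hepatocytes. Each time point was a sequencing run of its own, so that time and run cannot be told apart.

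The respiratory chain passes electrons from NADH (complex I) and succinate (complex II) through ubiquinone, complex III, cytochrome c and complex IV to oxygen, and complexes I, III and IV pump protons that drive the ATP synthase. Complex II is wholly encoded in the nucleus, whereas the other complexes join nuclear subunits, imported from the cytosol, to core subunits made inside the mitochondrion. The mitochondrial genome is transcribed from both strands into long precursors that are cut into single RNAs, and the nuclear genes are transcribed one by one. Hepatocytes are rich in mitochondria and use the chain to fuel gluconeogenesis, urea synthesis and fatty acid oxidation.

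Libraries held 15676749 to 18826201 counts in 2-month mutants, 14294611 to 17448730 in 2-month controls, 19498755 to 21587928 in tumours, 18977477 to 22062341 in tumour-free tissue and 19869241 to 20879281 in 9-month controls. Levels are given as CPM, a gene's counts per 1000000 counts of its library, scaled with trimmed-mean (TMM) factors. Fosl2 lay between 404.5 and 936 CPM in the mutant libraries and between 8.37 and 19.8 CPM in the control libraries. Jun lay between 334 and 785 CPM in mutant libraries and between 10.5 and 40.4 CPM in 8 control libraries, but the library labelled 9-month control 1 had 387 CPM. The log2 change of Fosl2 was 5.98 in 2-month mutants, 5.50 in tumours and 5.97 in tumour-free tissue, all past the test described below, and that of Jun was 5.18, which passed, and 1.71 and 2.08, which did not. Libraries also stood apart in the members themselves. The 9-month control 2 had the highest level of the 3 controls in 35 of 43 nuclear members, and control 1 the lowest in 36. The tumour of mutant 2 was the lowest of its group in 42 of 43 nuclear members, and 2-month mutant 3 likewise in 42 of 43. Results at 9 months are therefore given below with and without single libraries.

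Of the 13 mitochondrial genes, 7 carried counts and 6 were at or near 0. Over all 19 libraries together mt-Co1 had 4416678 counts, mt-Cytb 3554341, mt-Nd2 2476704, mt-Nd1 2389494, mt-Nd4 1726267, mt-Nd5 1577863 and mt-Nd6 14694. In the same libraries mt-Co2 had 3 counts, mt-Co3 had 2, mt-Atp6 had 1, and mt-Atp8, mt-Nd3 and mt-Nd4l had 0. The 5 of these other than mt-Atp8 have an annotated copy on chromosome 1 that matches them almost base for base (GRCm38, minus strand). Identical bases numbered 681 of 681 for mt-Co2 and Gm28661, 678 of 678 for mt-Atp6 and Gm10925, 783 of 783 for mt-Co3 and Gm28437, 344 of 345 for mt-Nd3 and Gm28438, and 294 of 294 for mt-Nd4l and Gm10222. The copies held few counts either, with 6 for Gm28438, 10 for Gm10222, 31 for Gm28661, 62 for Gm28437 and 63 for Gm10925.

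Part of mt-Co2, which encodes a core subunit of complex IV, and the start of mt-Nd3, which encodes a core subunit of complex I, are shown with their copies, because a short read from a stretch that 2 genes share cannot be assigned to either. The capital letter marks the base at which mt-Nd3 and its copy differ. Reference sequence of GRCm38 runs 5′ to 3′ on the gene's own strand, which is plus for the mitochondrial genes, at M:7325-7384 and M:9459-9518, and minus for the copies, at chr1:24615194-24615253 and chr1:24613060-24613119.
mt-Co2: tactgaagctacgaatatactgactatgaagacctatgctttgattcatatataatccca
Gm28661: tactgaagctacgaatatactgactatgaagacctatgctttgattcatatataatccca
mt-Nd3: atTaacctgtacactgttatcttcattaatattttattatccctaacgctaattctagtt
Gm28438: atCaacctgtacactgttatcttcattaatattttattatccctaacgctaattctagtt

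Of all 50-base windows of each gene, those found unchanged in another annotated gene made up 100% for mt-Co2, 99.9% for mt-Co3, 99.5% for mt-Atp6, 98.8% for mt-Nd4l and 97.99% for mt-Nd3. The share was 62.2% for mt-Nd4, 51.1% for mt-Co1, 8.19% for mt-Nd2, 7.61% for mt-Nd5 and 0% for mt-Nd1, mt-Nd6, mt-Cytb and mt-Atp8. mt-Atp8 was thus at 0 without such a copy in the annotation, although the chromosome 1 stretch holds 233 bases between the copies of mt-Co2 and mt-Atp6, where the mitochondrial genome has 230 bases. How reads matching several places were counted is not given in the sources used here, so the 6 genes are not read as silent. mt-Nd4 and mt-Co1 are uncertain for the same reason. Among nuclear members the share was highest for Uqcrb, at 25.4%, and Cox7c, at 22.1%.

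**Figure D1:**
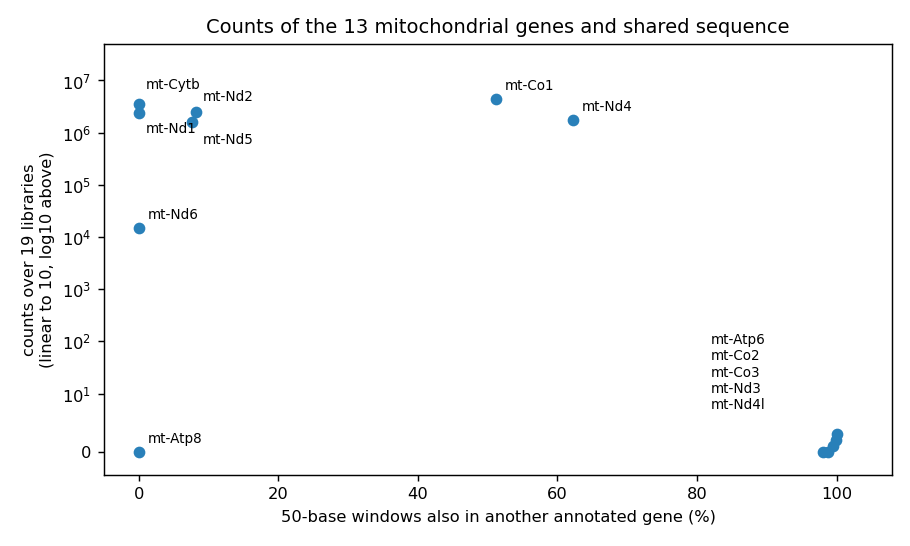
Counts of each of the 13 mitochondrial protein-coding genes over all 19 libraries (vertical axis, linear to 10 and log10 above) against the share of its 50-base windows that also lie in another annotated gene (horizontal axis, %). The 5 genes at 97.99% to 100% hold 0 to 3 counts, mt-Atp8 holds 0 counts at 0%, and the other 7 genes hold 14694 counts or more.

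Per kilobase of exon, the 6 most abundant members in both control groups were mitochondrial. In 2-month controls mt-Cytb, the mitochondrial subunit of complex III, led with 13014 ± 1132 CPM per kb (SD, n = 6), followed by mt-Co1 with 10197 ± 1525 and mt-Nd2 with 8793 ± 1025. mt-Nd1 had 7674 ± 713, mt-Nd4 4012 ± 457 and mt-Nd5 3117 ± 323 CPM per kb. The means of neighbours in this order lay more than 1 SD apart, except mt-Co1 with mt-Nd2. The order is that of the counts as given. Of the windows of mt-Co1 and mt-Nd4, 51.1% and 62.2% also lie in other genes, against 0% for mt-Cytb and mt-Nd1. How reads from shared windows were counted is not given. The places of mt-Co1 and mt-Nd4 relative to the other genes, the lead of mt-Cytb included, are therefore uncertain. The nuclear members began far lower, with Cox6a1, at 344 ± 23.7, Cox6b1, at 331 ± 24.5, and Cox4i1, at 261 ± 17.1 CPM per kb, all of complex IV. mt-Nd6, annotated at M:13552-14070 and the only mitochondrial member on the minus strand, had 102 ± 11.6 CPM per kb, rank 25 of the members. By the counts as given, mt-Cytb ranked 1 in both control groups, 2 in 2-month mutants and 3 in tumours and in tumour-free tissue.

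At 2 months the respiratory chain was lower in mutants across all 4 complexes. Of the 50 members with enough counts to be tested, 38 of 43 nuclear and 3 of 7 mitochondrial genes fell and none rose, while 20.4% of all 13773 genes tested fell and 22.3% rose. A call is an adjusted p under 0.05 in edgeR's quasi-likelihood test, with Benjamini-Hochberg adjustment over all genes tested, written below as edgeR adjusted p. The median log2 change was -0.59 for nuclear and -0.29 for mitochondrial members, against 0.01 for all genes tested. All 3 mutants lay below all 6 controls for 38 nuclear and 3 mitochondrial members, a pattern that 19.1% of all genes tested had. Summed over the 43 nuclear members, the level was 4674 ± 651 CPM in mutants and 6799 ± 360.4 CPM in controls (SD, n = 3 and 6). Summed over the mitochondrial members it was 45248 ± 7562 CPM in mutants and 58381 ± 6186 CPM in controls.

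**Figure D2:**
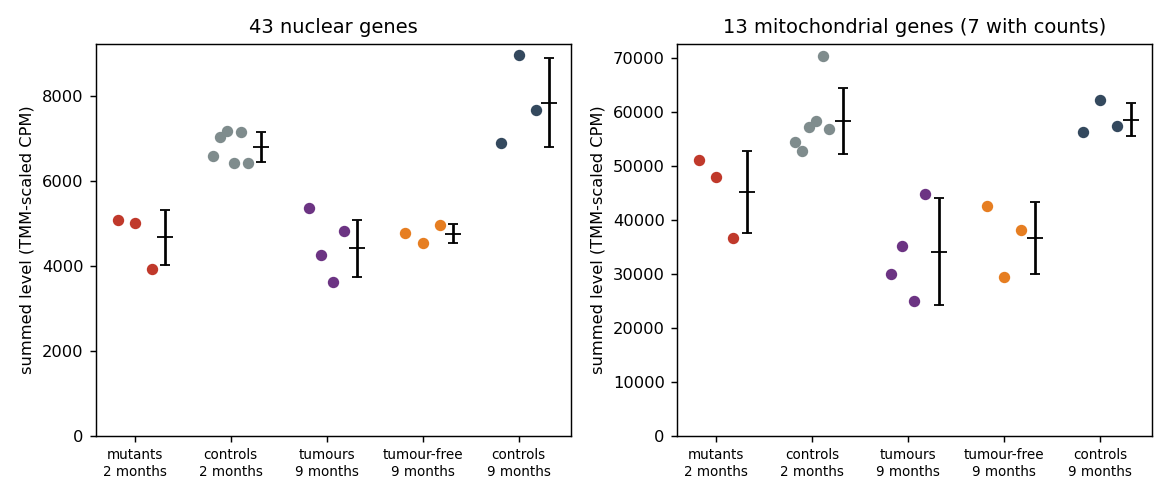
Summed TMM-scaled CPM of the 43 nuclear members (left) and the 13 mitochondrial members, 7 of them with counts (right), in each of the 19 libraries, with the mean and SD of each group beside its points. The 4 tumours are drawn singly, while their mean and SD are over 3 animals with both tumours of mutant 1 summed. All mutant libraries lie below all control libraries of the same time in both panels.

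The mitochondrial genes of complex I split. mt-Nd6 had 22.1, 17.3 and 20.4 CPM in mutants, against 46.8 (lowest), 52.1 (median) and 61.2 (highest) CPM in controls. Every mutant lay far below every control, and the log2 change was -1.40 ± 0.13 (SE; edgeR adjusted p = 6.45e-06), the largest fall of the 50 members tested. mt-Nd1, by contrast, had 7242, 7828 and 5687 CPM in mutants, against 6842 (lowest), 7111 (median) and 8701 (highest) CPM in controls. The groups overlapped for mt-Nd1, for mt-Nd2 (8656 ± 1532 CPM in mutants, 9127 ± 1064 CPM in controls, SD, n = 3 and 6), for mt-Nd4 and for mt-Nd5, and none of these 4 passed the test. Whether the counting used the strand of the reads is not given in the sources used here, so sense and antisense reads at mt-Nd6 cannot be told apart. Poly(A) selection also measures mt-Nd6 only as far as it carries a tail, and tails were not measured.

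Among the other mitochondrial members, mt-Cytb had 11408, 8523 and 6739 CPM in mutants, against 13950.0 (lowest), 14434 (median) and 17424 (highest) CPM in controls. It fell by 0.74 ± 0.16 on the log2 scale (SE; edgeR adjusted p = 0.00371), with no overlap between the groups. mt-Co1, the catalytic subunit of complex IV, averaged 11037 ± 1484 CPM in mutants and 15754 ± 2356 CPM in controls (SD, n = 3 and 6), and its log2 change was -0.51 (edgeR adjusted p = 0.0193). The log2 changes of the 2 next genes, mt-Nd5 and mt-Nd4, were -0.29 and -0.11 (edgeR adjusted p = 0.0725 and 0.59).

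Of the nuclear subunits of complex I, 20 of 24 fell, with a median log2 change of -0.56. The share was alike in the matrix arm, which oxidises NADH and hands electrons to ubiquinone (10 of 12), and in the proton-pumping membrane arm (10 of 12). Ndufb2, an accessory subunit of the membrane arm, had 19.4, 19.3 and 15.5 CPM in mutants, against 31.9 (lowest), 32.6 (median) and 37.5 (highest) CPM in controls. Each mutant was below each control, and the log2 change was -0.87 ± 0.10 (SE; edgeR adjusted p = 4.89e-05). Ndufa5, an accessory subunit of the matrix arm, had 36.4, 33.7 and 26.7 CPM in mutants, against 49.2 (lowest), 51.1 (median) and 63.7 (highest) CPM in controls, and fell by 0.71 (edgeR adjusted p = 0.000673). Ndufb5 and Ndufa10 of the membrane arm and Ndufa9 of the matrix arm fell as well, with log2 changes of -0.64, -0.61 and -0.59. The 4 that did not pass were Ndufa6, Ndufa8, Ndufa12 and Ndufa13, with log2 changes of -0.06, -0.21, -0.19 and -0.20. Ndufa6, an accessory subunit of the matrix arm, had 197, 189 and 142 CPM in mutants, against 173 (lowest), 180.1 (median) and 212 (highest) CPM in controls, so that 2 of the 3 mutants lay within the range of the controls.

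In complex II, 3 of 4 subunits fell. Sdhd, a membrane anchor, had 175, 175 and 133 CPM in mutants, against 244 (lowest), 252 (median) and 281 (highest) CPM in controls, without overlap. Its log2 change was -0.66 ± 0.11 (SE; edgeR adjusted p = 0.000479). Sdha, the flavoprotein that oxidises succinate, had 462, 507 and 388 CPM in mutants, against 582 (lowest), 659.8 (median) and 761 (highest) CPM in controls. Sdha fell by 0.54 (edgeR adjusted p = 0.00498), and Sdhc, the other anchor, fell by 0.44 (edgeR adjusted p = 0.00642). The iron-sulfur subunit Sdhb had 239, 224 and 174 CPM in mutants, against 212 (lowest), 243 (median) and 264 (highest) CPM in controls. The 2 groups overlapped for Sdhb, with a log2 change of -0.18 (edgeR adjusted p = 0.228).

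All 6 nuclear members of complex III and all 9 of complex IV fell, with medians of -0.63 in both. Cyc1, the cytochrome c1 of complex III, had 153, 152 and 112 CPM in mutants, against 216 (lowest), 233 (median) and 247 (highest) CPM in controls. No mutant reached the lowest control, and the log2 change was -0.73 ± 0.11 (SE; edgeR adjusted p = 0.000368). Uqcrc2, a core protein, and Uqcrfs1, the Rieske iron-sulfur protein, fell as well, with log2 changes of -0.63 and -0.64. Cox6c, a small subunit of complex IV, had 82.9, 77.6 and 65.6 CPM in mutants, against 127 (lowest), 138 (median) and 157 (highest) CPM in controls. The highest mutant was well below the lowest control, and the log2 change was -0.87 ± 0.10 (SE; edgeR adjusted p = 4.34e-05). Cox7b, another small subunit, and Cox4i1, through which ATP can inhibit the enzyme, fell too, with log2 changes of -0.78 and -0.63.

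Markers of cell types moved with these genes. The 5 matched hepatocyte markers summed to 36318 to 49962 CPM in mutants and 105155 to 127672 CPM in controls, and 3 of 5 fell, with Alb, which encodes albumin, at 30718 ± 4828 CPM in mutants and 101355 ± 7551 CPM in controls (SD, n = 3 and 6). For 2 other defining markers the means were not lower: the mean of Hnf4a was 827 CPM in mutants and 740 CPM in controls, and of Cps1 4887 CPM in mutants and 4014 CPM in controls. Macrophage markers summed to 367 to 589 CPM in mutants and 117 to 254 CPM in controls, and 4 of 6 rose. Stellate cell and fibroblast markers summed to 378 to 665 CPM in mutants and 199 to 321 CPM in controls, and 4 of 6 rose. Bile duct markers rose for 2 of 5 and endothelial markers for 1 of 5, none of the Kupffer cell, lymphocyte or neutrophil markers passed, and those of muscle and fat were at or near 0. In bulk tissue fewer cells of a type and less RNA per cell cannot be told apart, and the part of these shifts in the respiratory chain result was not tested.

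With no TMM factors, only library totals, the median log2 change of all genes tested was 0.286 at 2 months, 0.475 in tumours and 0.425 in tumour-free tissue, against 0.01, 0.01 and -0.01 with TMM factors, and fewer members passed. At 2 months 28 nuclear and 2 mitochondrial members then fell, and Ndufa6, Ndufa8, Ndufa12, Ndufa13, Sdhb, mt-Nd1, mt-Nd2 and mt-Nd4 had positive log2 changes. Relative to the median of all genes, every tested member was lower in 2-month mutants, in tumour-free tissue and in tumours. This held under each of the 4 scalings, but a scaling factor shifts a member and that median nearly alike. The agreement between scalings is therefore no further test of the result. Leaving out single animals kept 37 of the 41 members called at 2 months in every fit, and 46 of the 50 tested had negative log2 changes in every such fit.

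**Figure D3:**
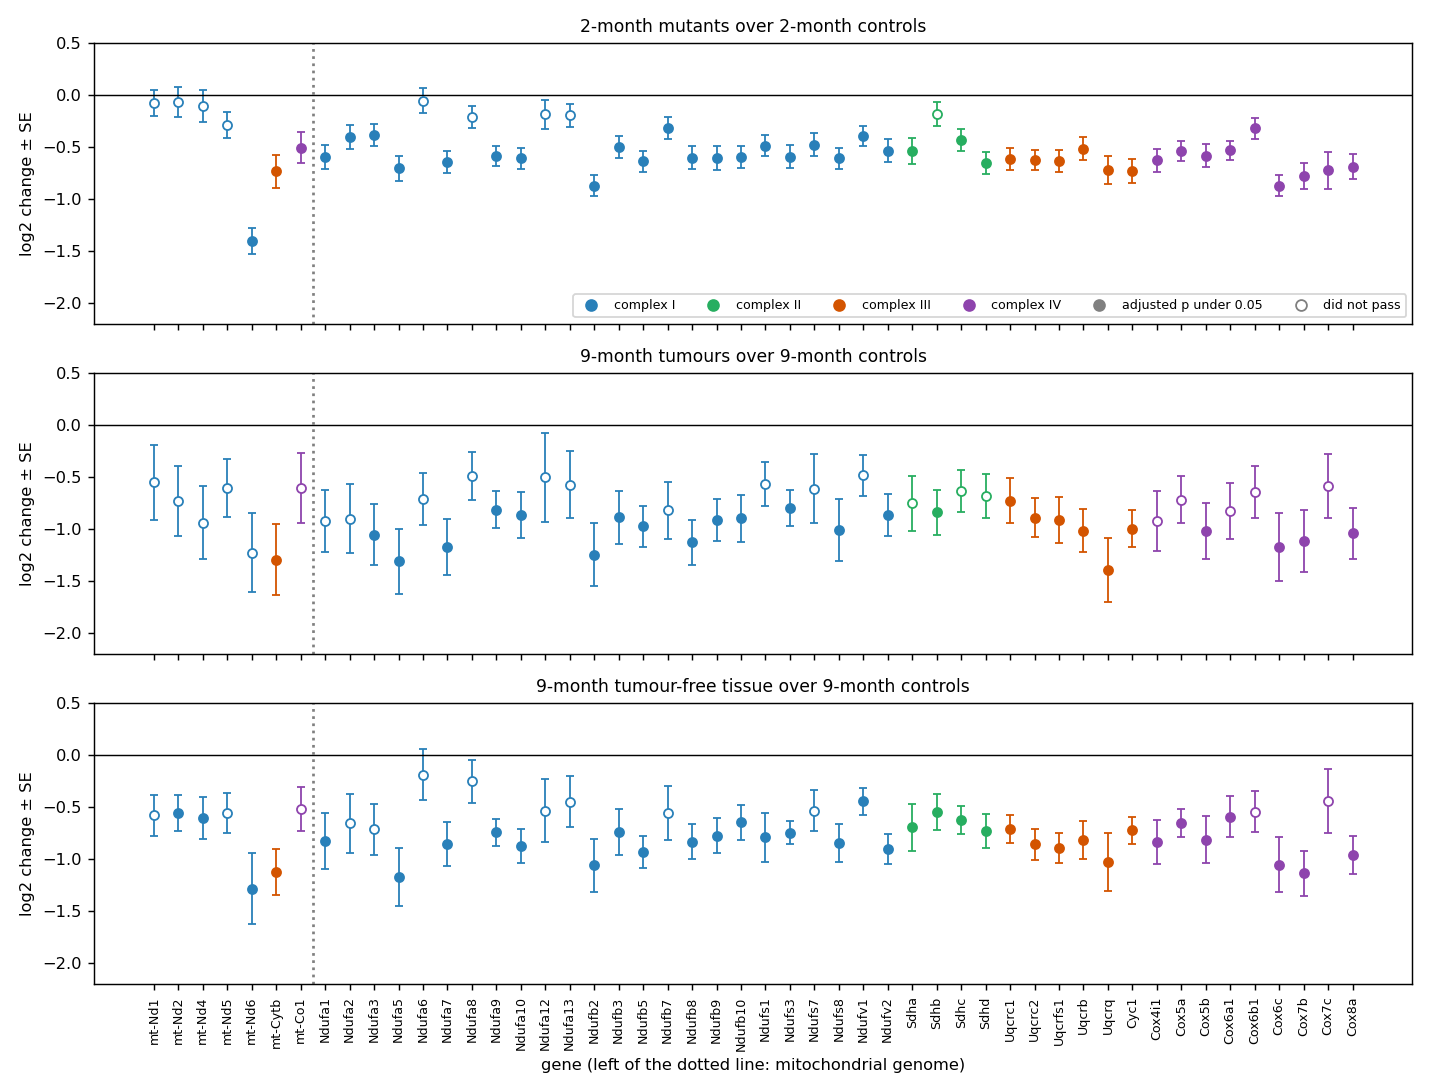
Log2 change with its SE for each of the 50 tested members in 2-month mutants over 2-month controls (top), tumours over 9-month controls (middle) and tumour-free tissue over 9-month controls (bottom), with filled points for an edgeR adjusted p under 0.05 and colours for complexes. With TMM scaling all points lie below 0 in the 3 panels, and 41, 26 and 37 of them are filled, from top to bottom. Tumours and tumour-free tissue share the same 3 controls.

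At 9 months the chain was lower in tumour-free mutant liver as well. In it 33 of 43 nuclear and 4 of 7 mitochondrial members fell and none rose, while 16.8% of all 14352 genes tested fell and 18.1% rose. The median log2 change was -0.74 for nuclear and -0.58 for mitochondrial members, against -0.01 for all genes tested. Summed nuclear levels were 4757 ± 221 CPM in tumour-free tissue and 7844 ± 1037 CPM in controls, and summed mitochondrial levels were 36714 ± 6633 CPM in tumour-free tissue and 58639.6 ± 3141 CPM in controls (SD, n = 3 each). For 34 nuclear and all 7 counted mitochondrial members every tumour-free sample lay below every control, as it did for 23.6% of all genes tested.

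mt-Cytb had 8328, 5386 and 6559.6 CPM in tumour-free tissue, against 12359, 17234 and 14503 CPM in controls. The groups were well apart, and it fell by 1.13 ± 0.22 on the log2 scale (SE; edgeR adjusted p = 0.00563). mt-Nd6 had 31.0, 29.2 and 32.3 CPM in tumour-free tissue, against 44.2, 119.7 and 60.2 CPM in controls, where control 2 was far above the other 2. It fell by 1.29 ± 0.34 (SE; edgeR adjusted p = 0.0212). mt-Nd2 and mt-Nd4 also fell, with log2 changes of -0.56 and -0.61 (edgeR adjusted p = 0.0361 and 0.0454), and mt-Nd5, with a log2 change of -0.56, did not pass (edgeR adjusted p = 0.0507).

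In complex I 16 of 24 nuclear subunits fell, 8 in each arm. Ndufs3, a conserved core subunit of the matrix arm, had 40.3, 37.5 and 38.6 CPM in tumour-free tissue, against 64.8, 65.3 and 64.9 CPM in controls. The spread within both groups was small beside the gap, and the log2 change was -0.75 ± 0.11 (SE; edgeR adjusted p = 0.00129). Ndufv2, which holds an iron-sulfur cluster near the NADH site, fell by 0.91, and Ndufb5, Ndufa9 and Ndufa10 fell with log2 changes of -0.94, -0.74 and -0.87. All 4 subunits of complex II fell, with Sdhc at -0.62, Sdhd at -0.73 and Sdhb at -0.55 on the log2 scale. Sdha had 448, 378 and 318 CPM in tumour-free tissue, against 732, 432 and 688 CPM in controls. Here control 2 was the lowest control and lay within the range of the tumour-free samples, the reverse of its place for most members.

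All 6 nuclear members of complex III fell, among them Uqcrfs1, Uqcrc2 and Cyc1 with log2 changes of -0.90, -0.86 and -0.73. Cyc1 had 157, 157 and 162 CPM in tumour-free tissue, against 245, 273 and 268 CPM in controls. Of complex IV 7 of 9 fell. Cox7b had 86.8, 84.1 and 93.5 CPM in tumour-free tissue, against 146, 253 and 179.9 CPM in controls, which did not overlap although control 2 was the highest. It fell by 1.14 ± 0.21 (SE; edgeR adjusted p = 0.00427), and Cox8a and Cox5a had log2 changes of -0.96 and -0.65, both past the test. Cox6c, the leading complex IV gene at 2 months, had 70.0, 66.9 and 84.6 CPM in tumour-free tissue, against 118, 221 and 119.5 CPM in controls.

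Hepatocyte markers summed to 40576 to 42368 CPM in tumour-free tissue and 114456 to 118895 CPM in controls, and macrophage markers to 486 to 557 CPM in tumour-free tissue and 99.6 to 147 CPM in controls. Of the markers 2 of 5 for hepatocytes fell, and all 6 for macrophages, 3 of 5 for Kupffer cells and 3 of 6 for stellate cells and fibroblasts rose. The log2 changes of the hepatocyte markers were negative for 3 and positive for 2, up to 0.43, and no positive one passed. Endothelial markers fell for 3 of 5 and rose for 1, bile duct markers rose for 1 of 5, lymphocyte and neutrophil markers did not pass, and the part of these shifts was not tested. The 33 nuclear calls became 16 without tumour-free sample 2, 29 without control 2, 37 without control 1 and 7 with library size alone, and the 4 mitochondrial calls became 1 without tumour-free sample 2 or 3, 2 without control 1 or 3, 3 without control 2 and 2 without the 9-month libraries numbered 1. All but 1 of the 50 log2 changes stayed negative whichever animal was left out, the exception being Ndufa6.

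Tumours were lower than controls in the same genes' sums, with fewer members past the test. Nuclear members fell for 25 of 43 and mitochondrial members for 1 of 7, and none rose, while 11.3% of all 14332 genes tested fell and 13.8% rose. The median log2 change was -0.89 for nuclear and -0.73 for mitochondrial members, against 0.01 for all genes tested. In tumours the nuclear members summed to 4412 ± 677 CPM, against 7844 ± 1037 CPM in controls, and the mitochondrial members to 34149 ± 9930 CPM, against 58639.6 ± 3141 CPM (SD, n = 3 animals each). With the tumours of mutant 1 summed, every animal's tumour lay below every control for 38 nuclear and 6 mitochondrial members, as for 21.6% of all genes tested.

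mt-Cytb was the mitochondrial call in tumours, with 6387, 7032, 4204 and 7289 CPM in tumours a and b of mutant 1 and those of mutants 2 and 3, against 12359, 17234 and 14503 CPM in controls. The lowest value was that of mutant 2, no tumour reached a control, and the log2 change was -1.30 ± 0.34 (SE; edgeR adjusted p = 0.0319). mt-Nd6 had 30.7, 30.7, 27.6 and 38.8 CPM in tumours in the same order, and its log2 change of -1.23 did not pass (edgeR adjusted p = 0.0546). mt-Nd1 had 4786, 4754, 4548 and 8649 CPM in tumours, against 7520.2, 10315 and 8147 CPM in controls. For mt-Nd1 the tumour of mutant 3 lay within the range of the controls and the other 3 tumours below it.

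Of complex I 14 of 24 nuclear subunits fell. Ndufb8, an accessory subunit of the membrane arm, had 65.0, 46.4, 40.3 and 48.2 CPM in tumours, against 82.8, 123 and 104 CPM in controls. It fell by 1.13 ± 0.22 (SE; edgeR adjusted p = 0.0107), without overlap. Ndufb5, Ndufb9, Ndufa9 and Ndufs3 fell as well, with log2 changes of -0.97, -0.92, -0.82 and -0.80. In complex II Sdhb alone passed, with 177, 169.6, 149 and 188 CPM in tumours, against 252, 353 and 293 CPM in controls. Its log2 change was -0.84 ± 0.22 (SE; edgeR adjusted p = 0.0295), beside -0.68 for Sdhd and -0.64 for Sdhc, which did not pass (edgeR adjusted p = 0.0538 and 0.0567).

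Complex III again fell in all 6 nuclear members. Cyc1 had 128, 141, 125 and 139 CPM in tumours, against 245, 273 and 268 CPM in controls. The tumours were close together and all below the controls, and the log2 change was -1.00 ± 0.18 (SE; edgeR adjusted p = 0.00804). Uqcrb, a small subunit, had 32.8, 25.2, 20.9 and 25.7 CPM in tumours, against 42.5, 60.7 and 47.2 CPM in controls, and fell by 1.02 (edgeR adjusted p = 0.0128). Uqcrc2 fell by 0.89. In complex IV 4 of 9 fell, among them Cox8a, Cox5b and Cox7b with log2 changes of -1.04, -1.02 and -1.12. Cox7b had 149.6, 86.4, 65.5 and 89.3 CPM in tumours, so that tumour a of mutant 1, at the top, lay just above the lowest control while tumour b of the same mouse was well below it.

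Hepatocyte markers summed to 54777 to 69601 CPM in tumours, against 114456 to 118895 CPM in controls. Macrophage markers summed to 458 to 951 CPM in tumours, against 99.6 to 147 CPM in controls. In tumours 2 of 5 hepatocyte markers fell, Apoa2 and Ttr, while Alb, Hnf4a and Cps1 did not pass. Alb made up most of the hepatocyte marker sum in 2-month controls. In tumours 6 of 6 macrophage markers, 3 of 6 stellate cell and fibroblast markers, 1 of 5 endothelial and 1 of 5 bile duct markers rose. No Kupffer cell, lymphocyte or neutrophil marker passed, and the part of these shifts was not tested. The 25 nuclear calls became 12 without the tumour of mutant 2, 11 without control 2, 3 without control 3, 6 without the 9-month libraries numbered 1 and 3 with library size alone, while Ndufb8 and Uqcrb passed in every fit that left out 1 animal. The mitochondrial call became 0 without the tumours of mutant 1, control 2 or control 3, and 3 without the tumour of mutant 3, whereas all 50 log2 changes stayed negative in each of these fits.

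Tumours were then set directly against tumour-free tissue of the same animals, in a fit without a term for the animal. No member passed in either direction, while 0% of all 14566 genes tested were lower and 0.0137% were higher, and 1 member had an unadjusted p under 0.05. For 4 nuclear members, Ndufa6, Ndufb8, Uqcrq and Cyc1, every animal's tumour lay below every tumour-free sample once the tumours of mutant 1 were summed, as for 7.72% of all genes tested. With 50 members tested, this count lies near the background. Of the 50 log2 changes 42 were negative, and the median was -0.11 for nuclear and -0.08 for mitochondrial members. The member with the smallest p, Ndufa6, had 151, 131, 124 and 127 CPM in tumours, against 154, 175 and 228 CPM in tumour-free tissue. Each tumour was below each tumour-free sample, with a log2 change of -0.52 ± 0.20 (SE; edgeR adjusted p = 0.473). The order of the groups for this gene was tumours, tumour-free tissue and controls, from low to high, with tumour-free tissue and controls overlapping. Log2 changes of other members were -0.29 ± 0.16 for Ndufb8, -0.36 ± 0.19 for the small complex III subunit Uqcrq, -0.28 ± 0.18 for Sdhb and -0.33 ± 0.32 for mt-Nd4. With errors of this size, equal levels were not shown either.

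The mutant effect in tumour-free tissue at 9 months minus that at 2 months was tested as an interaction. None of the 50 members passed, while 1.05% of all 14707 genes tested were lower and 0.462% were higher, and 3 members had an unadjusted p under 0.05. The median difference was -0.22 for nuclear and -0.38 for mitochondrial members, against -0.03 for all genes tested. The differences were -0.49 ± 0.22 for mt-Nd1 and -0.48 ± 0.22 for mt-Nd2 (SE; edgeR adjusted p = 0.356 and 0.356), and -0.36 ± 0.17 for Ndufv2 (edgeR adjusted p = 0.388). mt-Nd1 and mt-Nd2 overlapped with controls at 2 months and were below all controls in tumour-free tissue at 9 months, but a difference between the times was not shown by this test.

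Between 9-month and 2-month controls, 5 nuclear members were higher and no member lower, while 7.29% of all 13545 genes tested were higher and 4.64% were lower. The 5 were Ndufa2 and Ndufa7 of complex I, Uqcrc1 of complex III, and Cox5b and Cox8a of complex IV. Cox8a had 156, 239 and 187 CPM in 9-month controls, against 115 (lowest), 134 (median) and 149 (highest) CPM in 2-month controls. The groups did not overlap, and the log2 change was 0.54 ± 0.14 (SE; edgeR adjusted p = 0.0251), beside 0.65 for Ndufa2, 0.57 for Cox5b, 0.46 for Ndufa7 and 0.31 for Uqcrc1. The median was 0.21 for nuclear and -0.03 for mitochondrial members. Every 9-month control lay below every 2-month control for 1 member, Cox7c, as for 7.42% of all genes tested. The 5 calls became 0 without 9-month control 2 or 3 or 2-month control 6, 1 without 2-month control 1 or 4, 2 without 2-month control 2 or 5, 3 without 2-month control 3, and 15 without 9-month control 1, and age cannot be told apart from the sequencing run.

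The 2 genomes were compared within each library, where no scaling factor enters. The mitochondrial counts come from 7 of the 13 genes, and those of mt-Co1 and mt-Nd4 are uncertain, as described above. The mitochondrial members' counts over the nuclear members' counts came to 9.65 ± 0.354 in 2-month mutants and 8.59 ± 0.841 in 2-month controls (SD, n = 3 and 6). At 9 months they came to 7.67 ± 1.39 in tumours, 7.70 ± 1.19 in tumour-free tissue and 7.53 ± 0.606 in controls (SD, n = 3 each). As differences of log2 ratios these were 0.17 at 2 months (pooled SD 0.122), 0.01 for tumours over controls (pooled SD 0.195) and 0.02 for tumour-free tissue over controls (pooled SD 0.179). The last 2 differences were smaller than the spread between animals, and the first was 1 to 2 pooled SDs. No p is given for these ratios over chosen members. Mitochondrial members took 4.79 ± 0.543% of all counts in 2-month mutants, 5.12 ± 0.579% in 2-month controls, 3.93 ± 0.926% in tumours, 4.23 ± 0.675% in tumour-free tissue and 5.04 ± 0.449% in 9-month controls.

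The balance of RNAs within the mitochondrial genome was described in the same way. The 4 ratios computed were chosen after the values were seen and are given without a test. At 2 months each was lower in every mutant than in every control. Over both times together, mt-Cytb over mt-Nd1 and Cox6c over Ndufa6 were lower in every mutant library than in every control library. The ranges of the other 2 overlapped once the 9-month libraries were included. mt-Cytb over mt-Nd1 was 1.28 ± 0.258 in 2-month mutants (1.09 to 1.58) and 2.03 ± 0.0288 in 2-month controls (1.99 to 2.06). At 9 months it was 1.06 ± 0.307 in tumours, 1.16 ± 0.192 in tumour-free tissue (1.01 to 1.38) and 1.70 ± 0.0724 in controls (1.64 to 1.78). The ratio of mt-Nd6 to mt-Nd5, which neighbour each other on opposite strands, was 4.35 ± 0.773 per 1000 in 2-month mutants and 9.36 ± 1.08 per 1000 in 2-month controls. It was 9.26 ± 0.699 per 1000 in tumours, 8.77 ± 1.42 per 1000 in tumour-free tissue and 14.7 ± 9.31 per 1000 in 9-month controls, whose spread covers the mutant means. mt-Cytb over mt-Nd2 averaged 1.02 in 2-month mutants and 1.64 in 2-month controls, and 1.27 in tumours, 1.24 in tumour-free tissue and 1.85 in 9-month controls. At 9 months the ranges of this ratio overlapped only through tumour a of mutant 1, at 1.56, against 1.52 in control 1. In the nuclear set, Cox6c over Ndufa6 was 0.432 ± 0.0273 in 2-month mutants and 0.756 ± 0.0171 in 2-month controls, and 0.524 ± 0.123 in tumours, 0.402 ± 0.0454 in tumour-free tissue and 0.713 ± 0.0544 in 9-month controls.

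**Figure D4:**
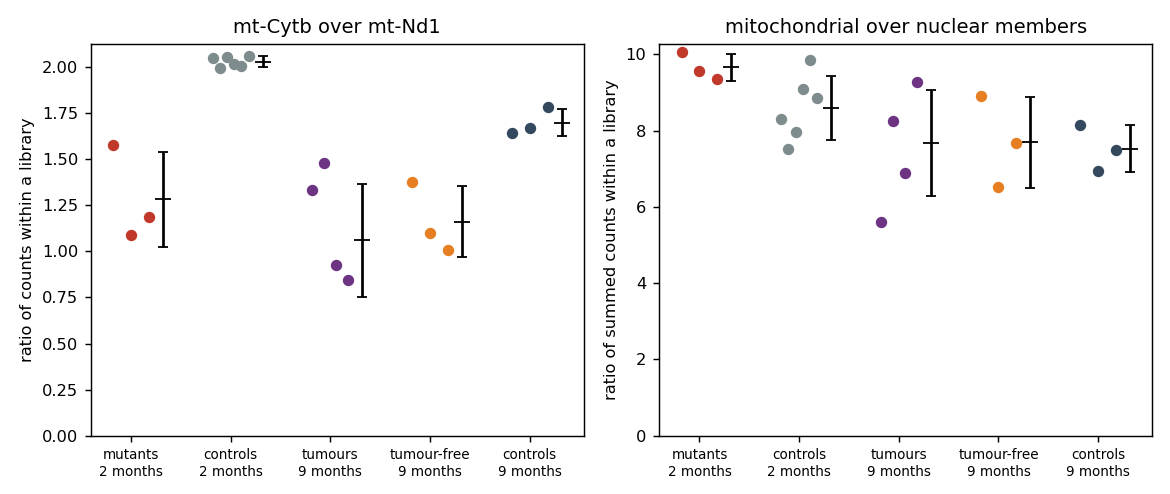
Ratio of mt-Cytb counts to mt-Nd1 counts (left) and of summed mitochondrial to summed nuclear member counts (right) in each of the 19 libraries, with the mean and SD of each group beside its points (tumours drawn singly, their mean and SD over 3 animals). On the left all mutant libraries lie below all control libraries of the same time; on the right the groups overlap.

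Neighbouring parts of the same system were taken from lists chosen with earlier results of these data known. Of 17 nuclear subunits of the ATP synthase, which uses the proton gradient, 14 fell in 2-month mutants, 9 in tumours and 11 in tumour-free tissue, with medians of -0.53, -0.83 and -0.72 on the log2 scale and none higher. Of all genes tested, 20.4% fell in 2-month mutants, 11.3% in tumours and 16.8% in tumour-free tissue. Atp5j averaged 91.4 ± 12.98 CPM in 2-month mutants and 155 ± 11.3 CPM in 2-month controls, a log2 change of -0.76 (edgeR adjusted p = 0.000201), beside -1.16 in tumours and -0.97 in tumour-free tissue. Of 20 further subunits of complexes I, III and IV, 13 fell in 2-month mutants, 8 in tumours and 12 in tumour-free tissue, with medians of -0.39, -0.78 and -0.68. Ndufb11 of complex I fell in all 3, with log2 changes of -0.74, -1.09 and -0.90. Of the alternative complex IV isoforms, Cox7a1 alone had enough counts to be tested, and it fell to 0.323 ± 0.242 CPM in 2-month mutants, against 1.09 ± 0.492 CPM in 2-month controls (SD, n = 3 and 6).

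Lists outside the complexes had medians nearer 0 than the lists of nuclear subunits, in some cases only slightly, and at 2 months each held members that rose. Their counts stand beside the shares of all genes tested that fell, 20.4% in 2-month mutants, 11.3% in tumours and 16.8% in tumour-free tissue, and that rose, 22.3% in 2-month mutants. Of 40 tested assembly factors 12 fell and 2 rose in 2-month mutants, 10 fell in tumours and 12 in tumour-free tissue, with medians of -0.17, -0.40 and -0.39. Coa6, which takes part in copper delivery to complex IV, rose to 44.5 ± 5.12 CPM in 2-month mutants, against 18.4 ± 1.48 CPM in 2-month controls, a log2 change of 1.28 (edgeR adjusted p = 2.13e-06). Sco2, a copper chaperone of the same complex, averaged 7.16 ± 0.591 CPM in tumour-free tissue and 34.4 ± 15.7 CPM in 9-month controls (SD, n = 3 each), a log2 change of -2.27 (edgeR adjusted p = 0.000829). Of 77 mitochondrial ribosomal protein genes 35 fell and 1 rose in 2-month mutants, 19 fell in tumours and 25 in tumour-free tissue, with medians of -0.24, -0.45 and -0.40. Mrpl38 fell in each, with log2 changes of -0.81 in 2-month mutants, -1.19 in tumours and -1.06 in tumour-free tissue. Of 14 tricarboxylic acid cycle enzymes, which supply NADH and succinate, 8 fell and 1 rose in 2-month mutants, 6 fell in tumours and 9 in tumour-free tissue. Their median was -0.33 in 2-month mutants and -0.64 in tumour-free tissue. In tumour-free tissue the nuclear members of complex II had -0.66 and the 20 further subunits -0.68. Idh3g fell in 2-month mutants, tumours and tumour-free tissue, with log2 changes of -0.72, -0.77 and -1.13.

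Genes that handle mitochondrial DNA and RNA included 13 of 29 that fell and 1 that rose in 2-month mutants, 8 that fell in tumours and 10 in tumour-free tissue, beside 20.4%, 11.3% and 16.8% of all genes tested that fell and 22.3% that rose in 2-month mutants. Lrpprc, which stabilises mitochondrial messenger RNAs, rose to 203 ± 13.9 CPM in 2-month mutants, against 150.3 ± 11.2 CPM in 2-month controls, a log2 change of 0.44 (edgeR adjusted p = 0.00284). Grsf1, an RNA-binding protein of mitochondrial RNA granules, fell by 0.62. Hsd17b10, a subunit of mitochondrial RNase P, averaged 78.9 ± 18.8 CPM in tumours, 96.6 ± 4.36 CPM in tumour-free tissue and 219 ± 41.0 CPM in 9-month controls, with log2 changes of -1.49 in tumours and -1.19 in tumour-free tissue. Of 24 membrane and import genes 10 fell and 4 rose in 2-month mutants, 5 fell in tumours, and 10 fell and 1 rose in tumour-free tissue, where 18.1% of all genes tested rose. Immt, the organiser of cristae junctions, fell by 0.70 and Opa1, which fuses inner membranes, fell by 0.53 in 2-month mutants.

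Of 12 transcriptional regulators of respiratory genes 6 fell and 1 rose in 2-month mutants, 2 fell in tumours and 3 in tumour-free tissue. Of all genes tested 20.4% fell and 22.3% rose in 2-month mutants, 11.3% fell in tumours and 16.8% in tumour-free tissue, so the 9-month counts of this list lie near the background. Ppargc1a, the coactivator PGC-1 alpha, averaged 3.60 ± 0.886 CPM in 2-month mutants and 8.62 ± 2.43 CPM in 2-month controls, and 6.03 ± 3.99 CPM in tumours, 3.57 ± 1.23 CPM in tumour-free tissue and 10.8 ± 1.18 CPM in 9-month controls. Its log2 changes were -1.25 at 2 months and -1.60 in tumour-free tissue, both past the test, and it did not pass in tumours. Esrrg, an orphan nuclear receptor, averaged 0.132 ± 0.192 CPM in tumours, 0.183 ± 0.0701 CPM in tumour-free tissue and 6.03 ± 2.29 CPM in 9-month controls. The mutant levels rest on a few counts per library, and the fitted log2 changes were -5.24 ± 0.94 in tumours and -5.002 ± 0.43 in tumour-free tissue (SE; edgeR adjusted p = 0.00954 and 8.92e-05). Gabpa, a subunit of the ETS factor GABP, fell by 0.58 in 2-month mutants.

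Promoters were read for the nuclear members, since most of them fell together. RefSeq windows of GRCm38.p6, from 250 bases before to 50 after the start, were found for 33 of 43 nuclear members (35 windows), and were searched on both strands beside all 32851 windows in the table. The NRF1 pattern, GCGC and TGCGC with any base between them, for a factor known for binding respiratory gene promoters, was in 22.9% of member windows and 4.60% of all windows, and its carriers were Cox6a1, Ndufa5, Ndufa6, Ndufa8, Sdha, Sdhd and Uqcrc1. For the GABP pattern CCGGAAGT the shares in members and in all windows were 5.71% (2 of 35 windows) and 3.89%. They were 8.57% (3 windows) and 2.38% for the YY1 pattern AANATGGCG. For the estrogen-related receptor pattern TCAAGGTCA they were 2.86% (1 window, that of Sdhd) and 0.423%. They were 11.4% (4 windows) and 7.81% for the AP-1 pattern TGANTCA, and 8.57% (3 windows) and 7.15% for the E-box CACGTG. For the cyclic AMP response element TGACGTCA they were 8.57% (3 windows) and 1.79%. Both windows of Ndufa7 hold the E-box, and by gene it was in 6.06% of members and 8.09% of all genes. Both windows of Ndufa5 hold the NRF1 pattern, and by gene it was in 21.2% of members and 5.19% of all genes. The 4 members with the AP-1 pattern were Cox7c, Ndufa13, Ndufa5 and Ndufa9. An exact form of the NRF1 pattern was searched first and is included in the form given, and the letters are a description and not evidence of binding.

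The 120 bases before the start are printed for 4 members, chosen after the matches were seen, as examples on either side of the call: Sdha and Ndufa5, which hold the NRF1 pattern and fell at 2 months, Ndufa8, which holds it and did not pass, and Ndufb8, which holds none of the patterns and fell. Capitals mark NRF1 patterns on either strand, except in the first Ndufa5 window, where they mark the AP-1 pattern. All run 5′ to 3′ on the minus strand of GRCm38.p6 (RefSeq), Sdha at chr13:74350241-74350360, the Ndufa5 windows at chr6:24527527-24527646 and chr6:24527691-24527810, Ndufa8 at chr2:36049339-36049458 and Ndufb8 at chr19:44555443-44555562.
Sdha: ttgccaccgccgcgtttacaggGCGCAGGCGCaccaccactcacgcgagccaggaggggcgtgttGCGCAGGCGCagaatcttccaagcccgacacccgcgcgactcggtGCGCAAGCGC
Ndufa5, first window: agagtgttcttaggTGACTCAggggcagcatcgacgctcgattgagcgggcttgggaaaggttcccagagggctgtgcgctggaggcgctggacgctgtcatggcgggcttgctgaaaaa
Ndufa5, second window: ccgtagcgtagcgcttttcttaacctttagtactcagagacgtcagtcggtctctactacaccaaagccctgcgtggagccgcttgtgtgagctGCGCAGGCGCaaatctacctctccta
Ndufa8: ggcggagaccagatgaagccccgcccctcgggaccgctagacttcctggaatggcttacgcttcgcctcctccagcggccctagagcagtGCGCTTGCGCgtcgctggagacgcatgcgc
Ndufb8: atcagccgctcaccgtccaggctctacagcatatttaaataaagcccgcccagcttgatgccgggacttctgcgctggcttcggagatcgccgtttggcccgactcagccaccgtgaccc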

How the data were processed

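RNA was extracted with Trizol and poly(A) libraries were made with a stranded (dUTP) kit, per the labels' protocols, with RNA integrity numbers of 7.5 to 8.2 at 2 months and 7.2 to 9.1 at 9 months. The authors deposited whole-number counts per gene. RSEM, STAR 2.6.1a, DESeq2 1.22.2 and bedtools 2.27.1 are named, with the builds GRCm38 and mm10 but no roles, per the submitters' processing notes, so the counts may be rounded estimates. The count depth limits the rarest genes. Gene positions and exon lengths came from GENCODE M21, which held 55240 of the 55421 IDs.

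For each comparison only its own groups entered the fit, a robust quasi-likelihood test after filterByExpr and TMM (edgeR 4.0.16, R 4.3.3), and p-values were adjusted over all genes tested. The SE is the log2 change divided by the root of the F statistic. The fits were tested on simulated data. The members and lists were chosen with earlier results of these data known. Fold changes are given for Jun and Fosl2, and per comparison for the 5 mitochondrial, 5 complex I and 3 each of complex II, III and IV members with the smallest p, and up to 2 called genes of each other list; others named were chosen after their values were seen. Control animals are separate mice, but p-values measure only the spread between these samples. Tumour and tumour-free samples with the same number come from the same animal by the labels, with correlations of their deviations of 0.2248, 0.3074 and 0.03338, and the replicate block also left 0 members called between them. Alternatives were DESeq2 1.42.0, other scalings, no filter, replicate blocks, separate tumours and single animals left out.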

Additional observations from a re-analysis of the deposited data

Results flagged for a closer look

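In the 2-month controls, 6 of 54 values tested had 1 library far from the other 5, and in each it was control 5, on the high side. For a single gene, chance gives this in about 1 of 20 groups. The 6 values come from the same library and are not independent, so their number cannot be set against that rate. mt-Nd1 had 8701 CPM in control 5 (median of the group 7111), mt-Nd4 6796 (median 5330.1), mt-Cytb 17424 (median 14434), Ndufa5 63.7 (median 51.1), Ndufa6 212.5 (median 180.1) and Ndufb2 37.5 CPM (median 32.6). This library was the highest of its group in 27 of 43 nuclear and 6 of 7 counted mitochondrial members.

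Mitochondrial transfer RNA genes, which no comparison above uses, were higher in mutants where they passed the test. mt-Tm averaged 36.2 ± 4.75 CPM in 2-month mutants and 13.1 ± 1.73 CPM in 2-month controls, a log2 change of 1.47 (edgeR adjusted p = 4.52e-06). In tumour-free tissue it averaged 26.3 ± 6.21 CPM against 6.89 ± 1.34 CPM in 9-month controls, a log2 change of 1.92 (edgeR adjusted p = 0.000433). mt-Tl1 changed by 1.74 (edgeR adjusted p = 0.00116; 4.27 CPM in tumour-free tissue, 1.27 CPM in controls) and mt-Tw by 1.67 (edgeR adjusted p = 0.00473; 2.92 CPM in tumour-free tissue, 0.909 CPM in controls). At 2 months mt-Tl1, mt-Tw and mt-Ti did not pass, nor did mt-Ti in tumour-free tissue. No transfer RNA gene passed in tumours, where mt-Tm had a log2 change of 1.06 (edgeR adjusted p = 0.131). The libraries were poly(A) selected, and tails were not measured.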

How the results depend on the processing

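Scalings by DESeq2's size factors or without the mitochondrial genes left every count of called members within 1.5 times its value, and the numbers of members with negative and positive log2 changes were as reported, except that mt-Co1 turned positive under both for the change of the mutant effect with time. Across the settings other than single animals left out, counts moved by more than that in 4 of 24 cases with DESeq2, 5 with library size alone, 1 with no expression filter, 5 with the replicate block, 1 of 8 with separate tumours and 6 of 20 without the 9-month libraries numbered 1. With library size alone, nuclear members lower numbered 7 in tumour-free tissue (33 as reported) and 3 in tumours (25), mitochondrial members lower 1 in tumour-free tissue (4) and 0 in tumours (1), and nuclear members higher in 9-month than 2-month controls 2 (5). With DESeq2 mitochondrial members lower numbered 7 in tumour-free tissue and 5 in tumours, and between the controls 8 nuclear members were higher and 1 lower (0 as reported). With no filter, 2 mitochondrial members were lower in tumour-free tissue. With separate tumours, 3 were lower in tumours.

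Outside the tumour and tumour-free pairs the labels share only numbers between groups, and correlations of same-numbered deviations ran from -0.2222 to 0.3089. With the replicate block, mitochondrial members lower numbered 1 at 2 months (3 as reported), 2 in tumour-free tissue and 0 in tumours, nuclear members lower 8 in tumours, and nuclear members higher between controls 0; the block changed no other count by over 1.5 times. Without the 9-month libraries numbered 1, mitochondrial members lower numbered 2 in tumour-free tissue and 0 in tumours, nuclear members lower 6 in tumours, and between controls 15 nuclear and 1 mitochondrial members were higher and 1 nuclear member lower. The cause of these moves was not tested, apart from fewer samples in the fits that leave some out.

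Leaving out each animal in turn gave 35 to 38 nuclear and 2 to 3 mitochondrial members lower at 2 months, 16 to 37 and 1 to 4 in tumour-free tissue, and 3 to 23 and 0 to 3 in tumours; between controls it gave 0 to 15 nuclear and 0 to 1 mitochondrial members higher and 0 to 1 nuclear member lower. A fit with 1 animal fewer assumes that the rest vary alike. Signs turned for genes that did not pass. mt-Nd4 at 2 months was 0.15 with library size alone and ran from -0.27 to 0.048 over animals left out. Without 2-month mutant 3, 4 of 7 mitochondrial and 42 of 43 nuclear members had negative changes at 2 months, and the highest were 0.069 and 0.077. For tumours over tumour-free tissue the ranges were -0.45 to 0.039 for mt-Nd2, -0.32 to 0.046 for mt-Cytb, -0.092 to 0.17 for mt-Nd6, -0.32 to 0.11 for mt-Co1, -0.053 to 0.16 for Sdhd, -0.16 to 0.078 for Sdha and -0.26 to 0.082 for Cox6c, and without the libraries numbered 1 the values were 0.094 for mt-Co1 and 0.062 for Sdha. Between controls Fosl2 was -0.20 without the libraries numbered 1 and ran from -0.20 to 0.36, mt-Nd6 from -0.038 to 0.75 and Sdhd from -0.18 to 0.033. For the change of the mutant effect with time, Sdha was 0.011 with library size alone, 0.021 with the replicate block and ran from -0.35 to 0.0070, and Fosl2 from -0.21 to 0.35. Low counts limit the precision for Esrrg and Cox7a1, and the 6 mitochondrial genes with 0 to 3 counts were not tested.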

Other observations

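Of 24 mitochondrial ribosomal and transfer RNA genes in the table, 6 had enough counts to be tested at 2 months. Both ribosomal RNAs fell at 2 months, and neither passed at 9 months. mt-Rnr1, the small ribosomal RNA, averaged 213 ± 42.7 CPM in 2-month mutants and 419 ± 105 CPM in 2-month controls, a log2 change of -0.97 (edgeR adjusted p = 0.00487). mt-Rnr2, the large ribosomal RNA, averaged 432 CPM in 2-month mutants and 585 CPM in 2-month controls, a log2 change of -0.43 (edgeR adjusted p = 0.0260). At 9 months the log2 change of mt-Rnr1 was -0.18 in tumours and -0.68 in tumour-free tissue, and that of mt-Rnr2 was 0.29 in tumours and -0.04 in tumour-free tissue. Poly(A) selection measures these RNAs only as far as they carry a tail, and tails were not measured.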
